A study of Mus musculus with 10 samples.

Results

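Transcripts typical of the choroid plexus epithelium were followed across 10 RNA libraries of microglia isolated from the adult mouse brain. The set holds 8 genes, Ttr, Enpp2, Folr1, Kl, Clic6, Kcnj13, Prlr and Sostdc1, out of 24033 gene names used. They were chosen by gene name, with earlier RPKM results of these same libraries known, and each name was found once in every library. Which of those values led to the choice is not recorded, so levels, shared variation and genotype differences are all treated as used in it and given as a description. The choroid plexus is a vascular fold in the brain ventricles, and its cuboidal epithelium secretes cerebrospinal fluid and moves hormones, vitamins and ions between blood and that fluid. Its cells are known for very high levels of transthyretin, for folate and thyroid hormone transport, and for an apical set of ion channels. Microglia, the resident macrophages of the brain tissue, are not known for these transcripts.

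The study compared mice that differ in Trem2, a lipid-sensing receptor of microglia. The 3 KO libraries (TREM2-/-, library numbers 6, 9 and 12) came from 1 female and 2 male samples, the 3 Het libraries (TREM2+/-, numbers 5, 8 and 11) from 2 female samples and 1 male, and the 4 WT libraries (TREM2+/+, numbers 1, 4, 7 and 10) from 2 of each sex. All were labelled as C57BL/6 mice aged 3 to 5 months. Cells were pulled from the brain with magnetic beads against CD11b, an integrin of myeloid cells, RNA was extracted with a column kit, and cDNA was amplified (Ovation RNA-seq system v2) and sequenced on a HiSeq4000. Whether each library was made from a single mouse or from several is not given in the labels, so the p-values rest on library-to-library spread that may be technical. Values are RPKM, reads scaled to gene length and to library size, so that levels of different genes can be set side by side.

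Trem2 itself followed the labels, at 24.5 ± 3.52 RPKM in KO, 93.9 ± 9.98 RPKM in Het and 191 ± 31.1 RPKM in WT (mean ± SD, n = 3, 3 and 4). Library depth, in recovered reads, was 17.2 M to 44.02 M, and 4 libraries (KO 9, KO 12, Het 11 and WT 10) held over 30 M. The 10 microglial marker genes summed to between 9780 and 11100 RPKM in KO, 9080 and 10700 RPKM in Het and 9620 and 11000 RPKM in WT, with P2ry12 among them. KO library 6 stood apart by the sum of 9 neutrophil genes, 2280 RPKM, against 103 to 378 RPKM in the other 9 libraries.

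The label of the set was read against other choroid plexus genes, with mixed levels. Of 32 further genes known from this epithelium, 28 passed the filter on low values (at least 0.5 RPKM in at least 3 libraries), which 56.7% of all genes did, and 0 of the 32 were listed at 0 in every library. Otx2, the homeodomain factor that specifies choroid plexus, averaged 6.17 RPKM over the 10 libraries, and Kcne2, a potassium channel subunit of the same epithelium, averaged 4.44 RPKM. Cldn3, Krt8, Msx1 and Lmx1a did not pass the filter, and Aqp1, the water channel of its apical membrane, averaged 0.918 RPKM. In bulk samples, fewer cells of a type and less RNA per cell cannot be told apart.

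Stretches upstream of the annotated starts are shown because the genes of the set moved together across libraries, as described further on. RefSeq windows on GRCm38.p6 were matched for 3 of the 8 genes, Kcnj13, Kl and Prlr. The 250 bases before the start are given 5′ to 3′ on the strand of the gene, at chr1:87394730-87394979 (minus strand) for Kcnj13, chr5:150952357-150952606 (plus strand) for Kl and chr15:10176988-10177237 (plus strand) for the most upstream of 3 Prlr starts. Capitals mark the only match to TATAAA.
Kcnj13: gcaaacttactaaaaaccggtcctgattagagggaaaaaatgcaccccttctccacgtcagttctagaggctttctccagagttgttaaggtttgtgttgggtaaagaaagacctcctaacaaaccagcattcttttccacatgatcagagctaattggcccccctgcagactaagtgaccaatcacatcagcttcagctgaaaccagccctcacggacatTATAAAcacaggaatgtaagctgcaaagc
Kl: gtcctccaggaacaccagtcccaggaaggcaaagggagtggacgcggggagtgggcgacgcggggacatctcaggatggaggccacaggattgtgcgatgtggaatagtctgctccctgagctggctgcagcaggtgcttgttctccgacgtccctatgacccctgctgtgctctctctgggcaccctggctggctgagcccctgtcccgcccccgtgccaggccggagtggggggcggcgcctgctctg
Prlr: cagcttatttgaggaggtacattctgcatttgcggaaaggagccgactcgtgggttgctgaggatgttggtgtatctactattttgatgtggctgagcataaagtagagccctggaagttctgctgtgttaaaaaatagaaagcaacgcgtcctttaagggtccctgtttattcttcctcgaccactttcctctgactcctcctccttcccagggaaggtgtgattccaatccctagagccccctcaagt
The 3 windows were unlike in base composition. Kl had 66.8% G or C and 13 CG dinucleotides, Kcnj13 45.2% and 3, and Prlr 48.0% and 6, where the median over all 32851 windows of this length was 6 CG. TATAAA, searched on both strands, lay 29 bases before the start of Kcnj13, and 12.4% of all windows hold it. The core TAATCC, read by OTX2-type factors, and the palindrome TAATTA had no match in these 3 windows, against 6.25% and 4.84% of all windows. GTAAACA, a forkhead core, had none here and 1 match, as TGTTTAC, in the second Prlr window (chr15:10223656-10223905), against 3.17% of all windows. CANNTG, the E-box, was present in all 3, with 66.2% of all windows. A match of letters is a description and not a site.

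Among the secreted products, transthyretin was by far the highest. Ttr, which carries thyroxine and the retinol-binding protein complex in blood and cerebrospinal fluid, lies on chromosome 18. It had 947, 1029 and 961 RPKM in KO libraries 6, 9 and 12, 1033, 1691 and 1330 RPKM in Het libraries 5, 8 and 11, and 1020, 680, 599 and 952 RPKM in WT libraries 1, 4, 7 and 10. Het 8 was highest and WT 7 lowest, and all 3 Het values lay above all 4 WT and all 3 KO values. Het 5 exceeded the nearest KO library, KO 9, and the nearest WT library, WT 1, by little. Its mean over the 10 libraries, 1024 RPKM, ranked 26th among the 13621 genes tested.

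Enpp2 encodes autotaxin, the secreted enzyme that makes lysophosphatidic acid, and lies at chr15:54838901-54952892 on the minus strand of GRCm38. It had 258, 237 and 178 RPKM in KO libraries 6, 9 and 12, 254, 348 and 331 RPKM in Het libraries 5, 8 and 11, and 272, 211, 168 and 233 RPKM in WT libraries 1, 4, 7 and 10. The order was like that of Ttr, with Het 8 and Het 11 on top and WT 7 at the bottom, but Het 5 lay among the WT and KO values. Enpp2 is also a gene of oligodendrocytes. The 9 oligodendrocyte markers summed to 20.0 to 23.2 RPKM in KO, 20.6 to 23.7 RPKM in Het and 19.6 to 22.4 RPKM in WT, led by Cnp at 12.1 and Mbp at 5.20 RPKM, while Mog averaged 0.0746 RPKM and Opalin 0.00837 RPKM.

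Sostdc1, a secreted antagonist of bone morphogenetic proteins that also modulates Wnt signalling (chr12:36314139-36318452, plus strand), had 8.69, 9.82 and 9.38 RPKM in KO libraries 6, 9 and 12. It had 7.13, 14.3 and 12.5 RPKM in Het libraries 5, 8 and 11, and 9.78, 13.3, 8.11 and 9.70 RPKM in WT libraries 1, 4, 7 and 10. The 3 genotypes overlapped, and WT 4, low for most of the other genes, was second highest here.

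Folr1, Kl and Prlr are receptors. Folr1 encodes the folate receptor that carries folate across this epithelium (chr7:101858331-101870788, minus strand) and was the lowest gene of the set. It had 3.02, 2.76 and 4.00 RPKM in KO libraries 6, 9 and 12, 1.81, 6.29 and 4.80 RPKM in Het libraries 5, 8 and 11, and 2.40, 2.36, 1.96 and 2.99 RPKM in WT libraries 1, 4, 7 and 10. The Het libraries held both its highest and its lowest value. The lowest, in Het 5, rested on 47 reads, with an exact 95% Poisson interval of 34.5 to 62.5 reads or 1.33 to 2.40 RPKM, so that it was not separable from WT 1, WT 4 or WT 7 at this depth. The interval covers counting error only.

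Kl encodes alpha-klotho, the co-receptor of fibroblast growth factor 23 that is also shed into cerebrospinal fluid (chr5:150952607-150993817, plus strand). It had 10.6, 10.2 and 8.58 RPKM in KO libraries 6, 9 and 12, 8.86, 17.5 and 13.9 RPKM in Het libraries 5, 8 and 11, and 14.5, 8.06, 6.73 and 11.1 RPKM in WT libraries 1, 4, 7 and 10. WT 1 lay between the 2 highest Het libraries, and Het 5 lay below WT 10, so the groups overlapped.

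Prlr, the receptor of prolactin (chr15:10177238-10349180, plus strand), had 5.54, 4.89 and 3.81 RPKM in KO libraries 6, 9 and 12. It had 5.64, 6.56 and 9.58 RPKM in Het libraries 5, 8 and 11, and 7.14, 3.90, 3.23 and 4.78 RPKM in WT libraries 1, 4, 7 and 10. Het 11 rather than Het 8 was highest, the KO values lay below all Het values, and WT spanned both.

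The remaining pair are channel genes. Kcnj13 encodes Kir7.1, an inward rectifier potassium channel of the apical membrane (chr1:87386363-87394729, minus strand). It had 41.0, 34.4 and 21.8 RPKM in KO libraries 6, 9 and 12, 33.8, 40.9 and 42.3 RPKM in Het libraries 5, 8 and 11, and 33.2, 29.5, 30.4 and 31.1 RPKM in WT libraries 1, 4, 7 and 10. WT was narrow and lay below all Het values, whereas KO held the second highest and the lowest value of the 10. Of the 1270 exon bases of Kcnj13, 623 (49.1%) are shared with exons of Gigyf2 on the opposite strand in GENCODE M21. Whether counting used strand is not given in the labels, so reads over the shared bases may come from either gene and Kcnj13 levels are uncertain. Gigyf2 averaged 18.8 RPKM, and its r with Kcnj13 over the 10 libraries was -0.18.

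Clic6, a member of the chloride intracellular channel family (chr16:92485736-92541243, plus strand), had 5.62, 5.39 and 3.87 RPKM in KO libraries 6, 9 and 12. It had 5.85, 7.20 and 6.80 RPKM in Het libraries 5, 8 and 11, and 6.59, 3.47, 3.26 and 5.85 RPKM in WT libraries 1, 4, 7 and 10. All KO values lay below all Het values, and the WT libraries fell into a higher female pair (1 and 10) and a lower male pair (4 and 7).

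Ordered by mean RPKM over the 10 libraries, Ttr (1024) was followed by Enpp2 (249), Kcnj13 (33.8), Kl (11.0), Sostdc1 (10.3), Prlr (5.51), Clic6 (5.39) and Folr1 (3.24). Kl and Sostdc1, and likewise Prlr and Clic6, had overlapping ranges and close means. The steps from Ttr to Enpp2 and from Enpp2 to Kcnj13 were wider than the ranges of these genes over the libraries. Together the 8 genes took 0.204% to 0.242% of recovered reads in KO, 0.249% to 0.374% in Het and 0.154% to 0.258% in WT, and Ttr gave 46.6% to 58.9% of those reads.

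**Figure D1:**
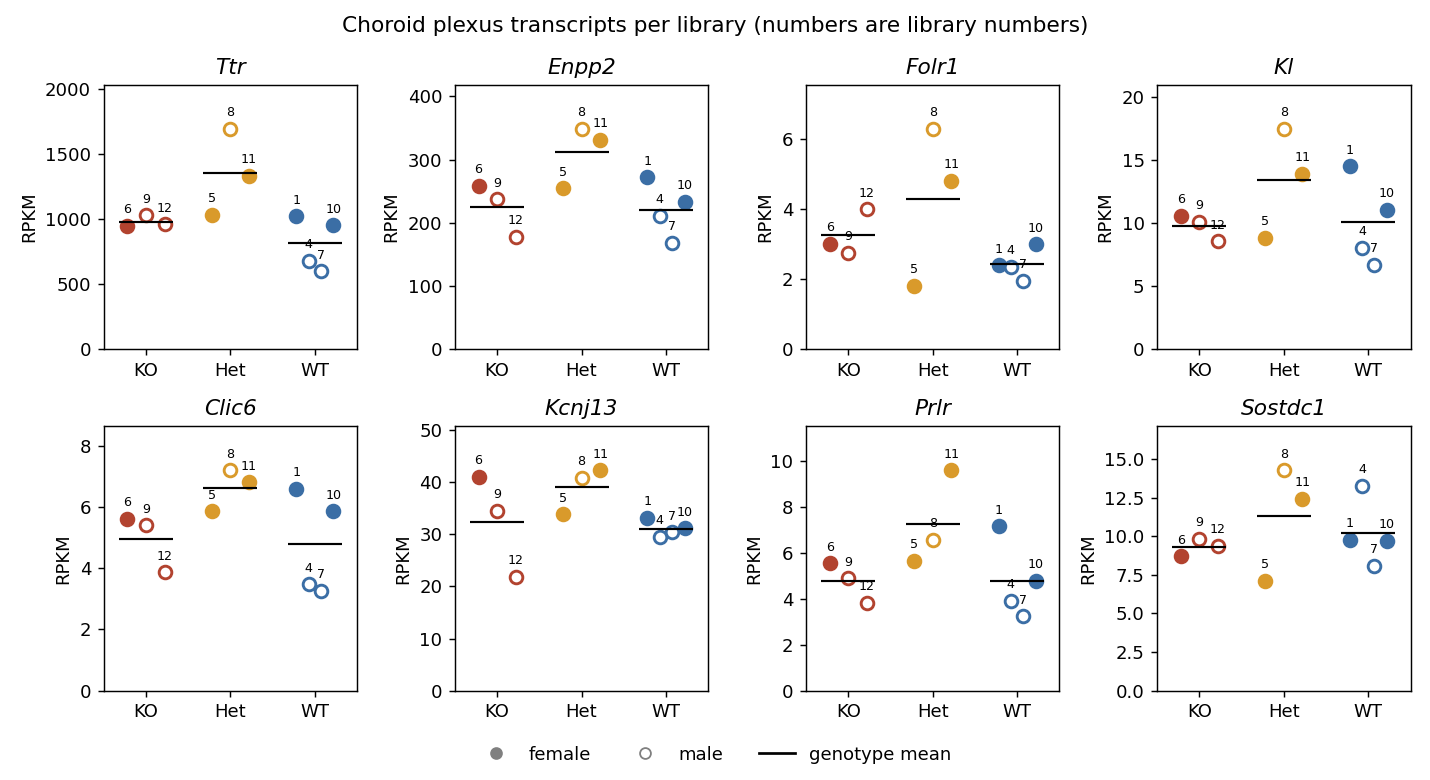
RPKM (linear axis from 0) of the 8 genes in each library, with KO, Het and WT from left to right, filled points for female and open points for male libraries, and a line at the mean of each genotype. Het 8 is the highest library for 6 genes and Het 11 for Kcnj13 and Prlr, while Het 5 sits among the WT and KO libraries for most genes.

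The 8 genes were high and low in much the same libraries. For each gene, the deviation of log2(RPKM + 0.5) from its own mean over the 10 libraries was taken, and the mean of the 8 deviations gave an index per library. The index was 0.036, -0.023 and -0.24 in KO libraries 6, 9 and 12, -0.12, 0.55 and 0.46 in Het libraries 5, 8 and 11, and 0.13, -0.27, -0.51 and -0.023 in WT libraries 1, 4, 7 and 10. In Het 8 and Het 11 all 8 genes lay above their own means, and in WT 7 none of the 8 did. Because the set was chosen with values of these libraries known, this co-variation is described and not tested.

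**Figure D2:**
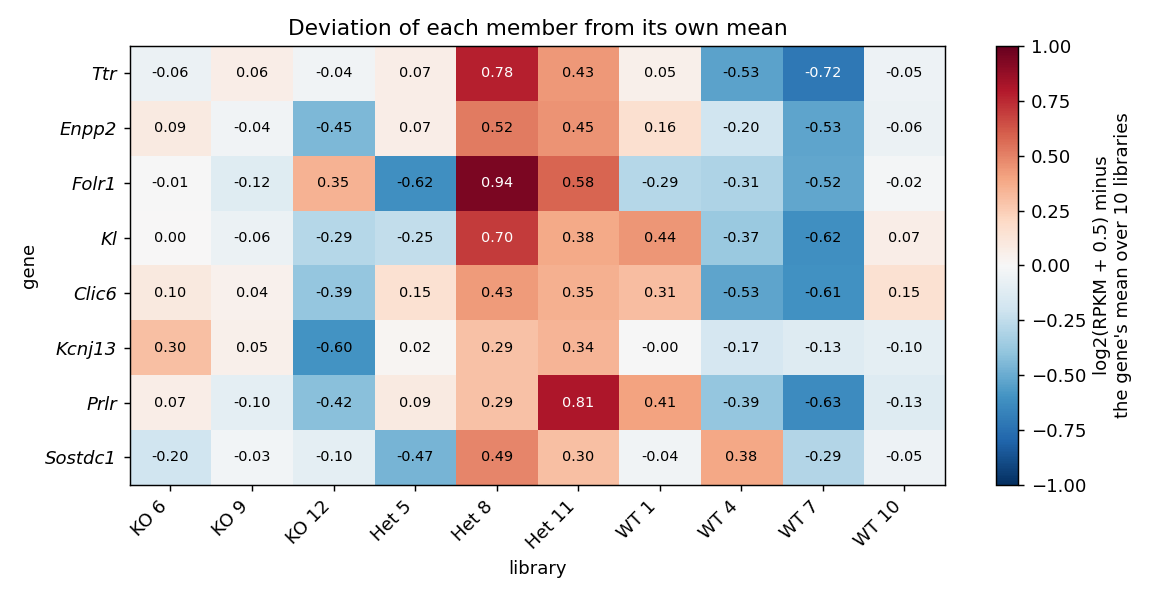
Deviation of each gene (down the page) in each library (across) from its own mean, in log2(RPKM + 0.5) units, red above and blue below. Het 8 and Het 11 are red for all 8 genes and WT 7 is blue for all 8, and Sostdc1 in WT 4 (0.38) and Folr1 in KO 12 (0.35) go against the other genes of their columns.

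Over the 28 pairs of genes, the median Pearson r across the 10 libraries was 0.70, with a range of 0.21 to 0.92, and all 28 were positive. By Spearman rank the median was 0.63, and 28 of 28 were positive again. For comparison, the median over all pairs of the 13621 genes was 0.01, 51.3% of those pairs were positive, and 2.5% had an r of at least 0.7, a level that 14 of the 28 pairs reached. All libraries enter every pair, so pairs share their library and its depth.

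The pattern did not rest on 1 library alone, but it weakened without the extremes. Without Het 8 the median r was 0.57 and 27 of 28 pairs were positive. Without both Het 8 and WT 7, the 2 libraries farthest from the median index, it was 0.53 with 26 of 28 positive, and the 2 negative pairs were Clic6 with Sostdc1 (-0.28) and Ttr with Sostdc1 (-0.19). After additive terms for genotype and sex were fitted and removed, the median was 0.72. Any pattern particular to a genotype within 1 sex stays in these residuals, and each genotype and sex had only 1 or 2 libraries. Among the 6 libraries under 30 M reads the median was 0.76 with 28 of 28 positive. These 6 include both Het 8 and WT 7, so this value does not show the pattern without the extremes. The 4 deeper libraries are too few for a correlation.

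Within the set, Enpp2 and Prlr were the closest pair (r = 0.92), followed by Enpp2 and Clic6 (0.91) and Enpp2 and Kl (0.90). The median r of a gene with the other 7 was 0.87 for Clic6, 0.86 for Enpp2, 0.84 for Kl, and 0.78 for both Ttr and Prlr. It was lower for Kcnj13 (0.62), Folr1 (0.56) and Sostdc1 (0.43). Sostdc1 went most closely with Folr1 (0.70) and least with Clic6 (0.21).

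**Figure D3:**
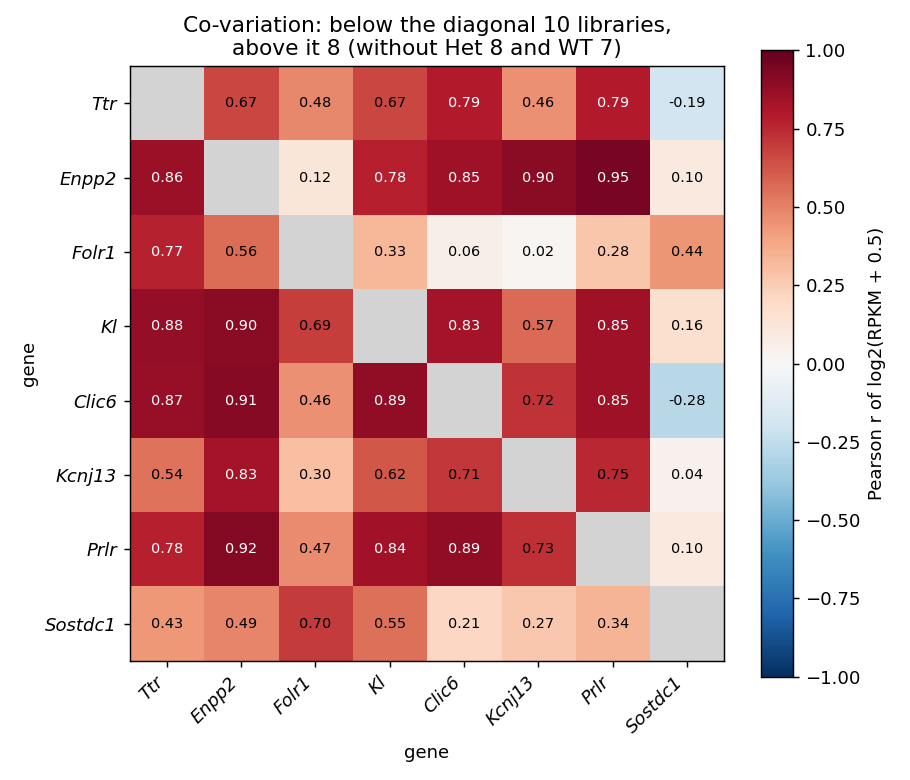
Pearson r between genes on log2(RPKM + 0.5), below the diagonal over 10 libraries and above it over 8 libraries without Het 8 and WT 7. Enpp2, Kl, Clic6 and Prlr keep r of 0.78 to 0.95 with each other above the diagonal, while r of Sostdc1 with the others lies between -0.28 and 0.44 there.

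Ratios to Ttr within a library show how nearly the set moved as 1 unit. Clic6 was 0.403% to 0.646% of the Ttr level, Kl 0.858% to 1.42% and Enpp2 18.5% to 31.1%, so that the highest ratio was 1.61 to 1.68 times the lowest. Prlr was 0.388% to 0.72% of Ttr. Wider spreads were seen for Kcnj13 (2.27% in KO 12 to 5.07% in WT 7), Folr1 (0.175% in Het 5 to 0.416% in KO 12) and Sostdc1 (0.691% in Het 5 to 1.95% in WT 4). The 8 levels themselves ranged over 1.94 times (Kcnj13) to 3.48 times (Folr1).

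The other choroid plexus genes moved the same way. Their index correlated with that of the set with r = 0.94 and rho = 0.89 over the 10 libraries, and with r = 0.91 without Het 8 and WT 7. Of the 28 genes, 26 had a positive r with the index of the set and 15 an r of at least 0.7, a level reached by 2.16% of all other genes tested, whose median r was 0.06. Trpm3 and Car12 (0.91 each), Slc13a4 and Col8a1 (0.90 each), and Igf2 and Slc4a5 (0.89 each) were the closest.

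The 5 most abundant genes of that list did not all take part. Igf2, a growth factor secreted into cerebrospinal fluid, averaged 26.5 RPKM with r = 0.89, 1500015O10Rik averaged 16.8 RPKM with r = 0.85, and F5, coagulation factor V, averaged 12.4 RPKM with r = 0.83. Slc12a2, a sodium, potassium and chloride cotransporter that many cell types express, was the highest at 44.7 RPKM with r = -0.31. Slc22a8, an organic anion transporter that brain endothelium also expresses, averaged 19.1 RPKM with r = 0.05.

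**Figure D4:**
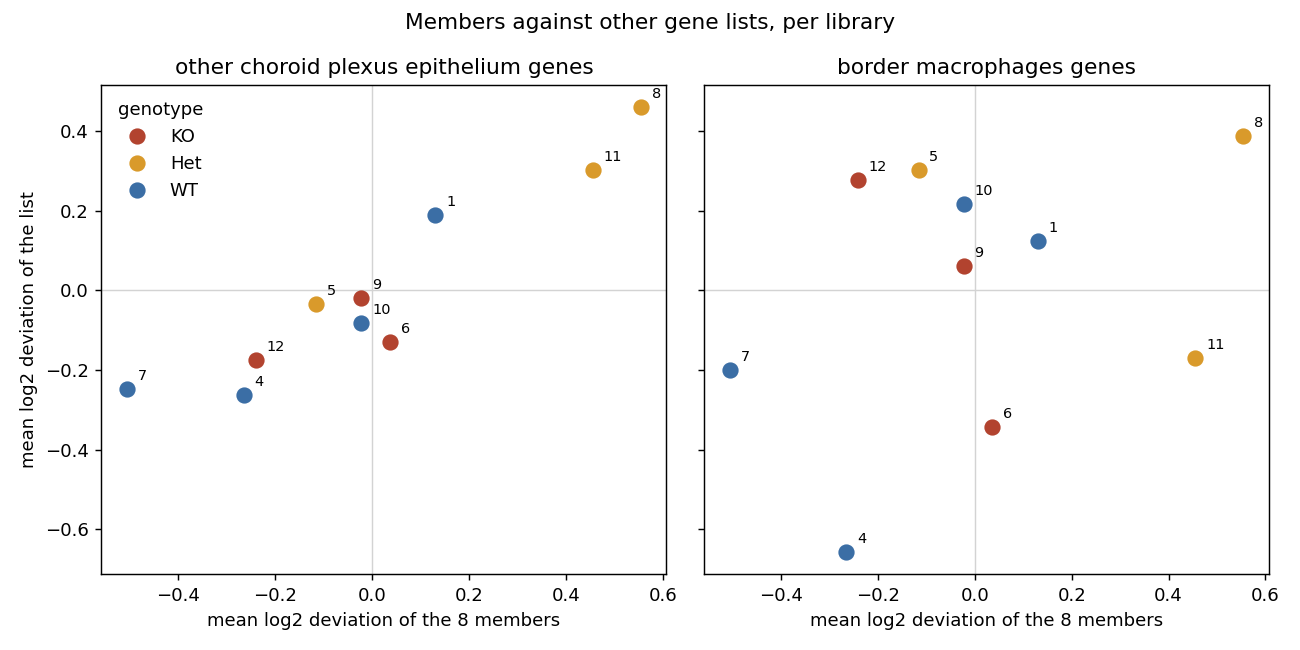
Index of 2 gene lists (vertical axis, mean log2 deviation from each gene's mean) against the index of the 8 choroid plexus genes (horizontal axis), 1 point per library, numbered and coloured by genotype. The 28 other choroid plexus genes (left) follow the set with r = 0.94, whereas the 11 border macrophage genes (right) have r = 0.32 over the 10 libraries and -0.02 without Het 8 and WT 7.

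Marker lists of cells that neighbour the choroid plexus or the vessels were read beside it. The ependymal list, 9 genes tested of 12, had r = 0.77 with the index of the set (0.69 without Het 8 and WT 7), and its sum was 9.88 to 13.6 RPKM in KO, 9.14 to 15.8 RPKM in Het and 10.5 to 11.4 RPKM in WT. Its 2 most abundant genes, 1700009P17Rik and Ak7, averaged 3.24 and 1.57 RPKM but went the other way from the set (r = -0.35 and -0.20), and Foxj1, the master factor of motile cilia, averaged 1.08 RPKM with r = 0.58. Over the 9 genes the median r was 0.37, 6 were positive, and Dynlrb2 (0.88) was the 1 gene at 0.7 or above. Fibroblast genes, led by Ptgds and Serping1, had r = 0.53, and 0.60 without Het 8 and WT 7 (sums 15.3 to 29.6 RPKM in KO, 12.9 to 24.6 RPKM in Het and 12.6 to 21.5 RPKM in WT). Mural genes, led by Rgs5 and Acta2, also had r = 0.53, and 0.64 without those libraries (sums 59.5 to 78.0 RPKM in KO, 47.4 to 122 RPKM in Het and 57.3 to 95.1 RPKM in WT).

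Lists of other cells had a lower r with the set over all 10 libraries, though for some it depended on Het 8 and WT 7. The 11 border macrophage genes, led by Stab1 and Mrc1, had r = 0.32, and -0.02 without Het 8 and WT 7 (sums 149 to 240 RPKM in KO, 165 to 247 RPKM in Het and 131 to 207 RPKM in WT), with Het 8 the highest library and WT 4 the lowest. The r was 0.24 for 8 astrocyte genes led by Slc1a3 and Atp1b2 but 0.60 without those libraries, as for the fibroblast list. It was 0.07 for 11 endothelial genes led by Slco1a4 and Flt1 (0.35 without them), and 0.39 for 4 oligodendrocyte genes tested (0.23 without them). It was -0.02 for 6 monocyte genes led by Fn1 and Chil3 (-0.01 without them), -0.04 for 9 neutrophil genes led by S100a9 and S100a8 (-0.19 without them), and -0.45 for the 10 microglial genes (0.17 without them). Only 2 of 10 neuronal genes, Snap25 and Stmn2, passed the filter, with 2.44 and 1.38 RPKM on average, and 4 of 5 red blood cell genes were listed at 0 in every library. The part of any of these lists in the values of the set was not tested.

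Single genes with the pattern most like the set were sought among 11770 genes with a mean of at least 1 RPKM. The 10 with the highest r to the index over the 10 libraries were 5930403L14Rik and Parva (0.95 each), Nsg2 and Sfrp1 (0.94 each), Vat1l (0.93), Lbp, Atp5sl, Cntn1 and Fgfr2 (0.92 each) and Tead1 (0.91). They were low, with mean levels of 1.42 to 5.87 RPKM, and none was on the list of other choroid plexus genes. The 5 most like Ttr alone were Atp5sl (0.97), Fgfr2 (0.95), Egln2 (0.95), Smpd1 (0.93) and Cntn1 (0.92).

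Het against WT gave the widest differences between genotypes. In limma fits of log2(RPKM + 0.5) with genotype and sex as terms, all 8 genes had a positive log2 difference, with a median of 0.44, where the median over all 13621 genes was 0.001 and 50.3% were positive. None of the 8 was called at a Benjamini-Hochberg adjusted p under 0.05 (adjusted p = 1 for each), and 0 of 13621 genes (0.0%) were. Trem2 itself, with a log2 difference of -1.02, was not called either (unadjusted p = 1.75e-05, adjusted p = 0.238 by limma). The lack of calls therefore does not exclude differences of that size. At an unadjusted p under 0.05, limma gave 3 of the 8 genes and 1.4% of all genes in the higher direction, and limma-voom on recovered reads gave 3 of the 8 and 1.23% of all genes. The set was chosen with these libraries in view, so the counts are given without weight on them.

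Ttr had the largest difference, 0.72 on the log2 scale (SE 0.21, 95% interval 0.26 to 1.19, unadjusted p = 0.00569, adjusted p = 1 by limma), from means of 1351 ± 330 RPKM in Het and 813 ± 205 RPKM in WT (SD, n = 3 and 4). Prlr followed with 0.51 (interval 0.040 to 0.98), from 7.26 ± 2.06 RPKM in Het and 4.76 ± 1.71 RPKM in WT. Enpp2 differed by 0.47 (interval 0.090 to 0.85), from 311 ± 50.0 RPKM in Het and 221 ± 43.2 RPKM in WT. Folr1 had a larger estimate, 0.62, with an interval that included 0 (-0.080 to 1.32). Estimates for Clic6 (0.42), Kl (0.37), Kcnj13 (0.29) and Sostdc1 (0.14) also had intervals that included 0. Het and WT did not overlap for 2 of the 8 genes, Ttr and Kcnj13, all in the higher direction, as was the case for 2.23% of all genes. Both separations were narrow between Het 5 and WT 1, at 1033 against 1020 RPKM for Ttr and 33.8 against 33.2 RPKM for Kcnj13.

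These differences leaned on Het 8, which also had the highest border macrophage sum (247 RPKM) and the lowest microglial sum (9080 RPKM). Without it the median over the set was 0.18, Ttr was at 0.39, Kl and Sostdc1 turned negative (-0.071 and -0.033), and limma gave 0 of 8 with p under 0.05 before adjustment. Het 8 is the only male Het library, so that fit compares female Het libraries with WT through the sex term. The female against male median of the set also moved, from 0.18 to 0.36. The loss of a high library and the changed sex term cannot be told apart here. Without Het 5, the Het library nearest to WT, the median was 0.65 and Folr1 was at 1.05. Within the 6 libraries under 30 M reads, means over Het 5 and Het 8 were set against means over WT 1, WT 4 and WT 7. Their median difference over the set was 0.44 (7 of 8 genes positive), with no term for sex. Het 8 is part of that mean, and the index of Het 5 (-0.12) lay below that of WT 1 (0.13). Among the deeper libraries Het 11 exceeded WT 10 by a median of 0.46 (8 of 8), with 1 library on each side. Of the 28 other choroid plexus genes, 25 were positive in Het against WT with a median of 0.36, and limma called 0 (6 at an unadjusted p under 0.05, against 2.75% of all genes in either direction). Some other cell type lists also lay higher in Het, but not all. The median was 0.45 for the ependymal list (7 of 9 positive), 0.41 for neutrophils (8 of 9) and 0.27 for border macrophages (11 of 11). It was 0.20 for fibroblasts (7 of 8), 0.17 for astrocytes (7 of 8), 0.11 for monocytes (4 of 6), 0.10 for mural cells (6 of 7) and 0.06 for oligodendrocytes (3 of 4). For the endothelial list it was -0.06 (3 of 11), and for the microglial list -0.07 (3 of 10). Their part in the differences of the set was not tested.

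KO libraries were close to WT. The log2 differences were positive for 7 of the 8 genes with a median of 0.082, where the median of all genes was 0.03 and 57.2% were positive. None of the 8 was called (adjusted p of 0.99 to 0.999 by limma), and 1 of 13621 genes was (0.00734%), which was Trem2. Unadjusted p-values under 0.05 were seen for 0 of the 8 with limma or limma-voom, against 3.32% of all genes in the higher and 1.81% in the lower direction with limma, and 2.41% and 2.58% with limma-voom. Ttr averaged 979 ± 44.1 RPKM in KO and 813 ± 205 RPKM in WT, a log2 difference of 0.32 (95% interval -0.15 to 0.78). Among the 8 the interval was widest for Folr1 (-0.37 to 1.02) and narrowest for Kcnj13 (-0.33 to 0.42). Differences within these limits remain possible, and the limits do not give the smallest change that would have been called. KO and WT overlapped for all 8 genes, while 2.99% of all genes lay wholly higher in KO and 1.6% wholly lower. Without KO 6, the library with high neutrophil genes, 5 of 8 were positive and the median was 0.099. The 28 other choroid plexus genes were divided into 15 positive and 13 negative, with a median of 0.02.

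KO against Het was the reverse of Het against WT and shares the Het libraries with it, so it adds no separate evidence. All 8 log2 differences were negative with a median of -0.31, where all genes had a median of 0.03 and 42.9% were negative. None was called (adjusted p = 0.999 by limma), against 1 gene of all (0.00734%), and at an unadjusted p under 0.05 limma gave 0 of the 8, against 1.15% of all genes in the lower direction, and limma-voom gave 3, against 1.74%. The values for Enpp2 were -0.41 (interval -0.82 to 0.0058), from 225 ± 41.7 RPKM in KO and 311 ± 50.0 RPKM in Het. Those for Ttr were -0.40 (interval -0.91 to 0.10), from 979 ± 44.1 RPKM in KO and 1351 ± 330 RPKM in Het. KO lay below Het without overlap for 3 of 8 genes, Ttr, Clic6 and Prlr, as it did for 3.02% of all genes. Each separation was narrow and rested on Het 5. Ttr had 1033 RPKM there against 1029 RPKM in KO 9. Clic6 had 5.85 against 5.62 RPKM in KO 6 (405 and 406 reads), and Prlr 5.64 against 5.54 RPKM in KO 6 (1398 and 1434 reads). No counting interval was computed for these margins. Without Het 8, which leaves only female Het libraries, the median was -0.051, and Folr1 (0.16), Kl (0.17) and Clic6 (0.056) were positive. Of the other choroid plexus genes 26 of 28 were negative, with a median of -0.37.

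**Figure D5:**
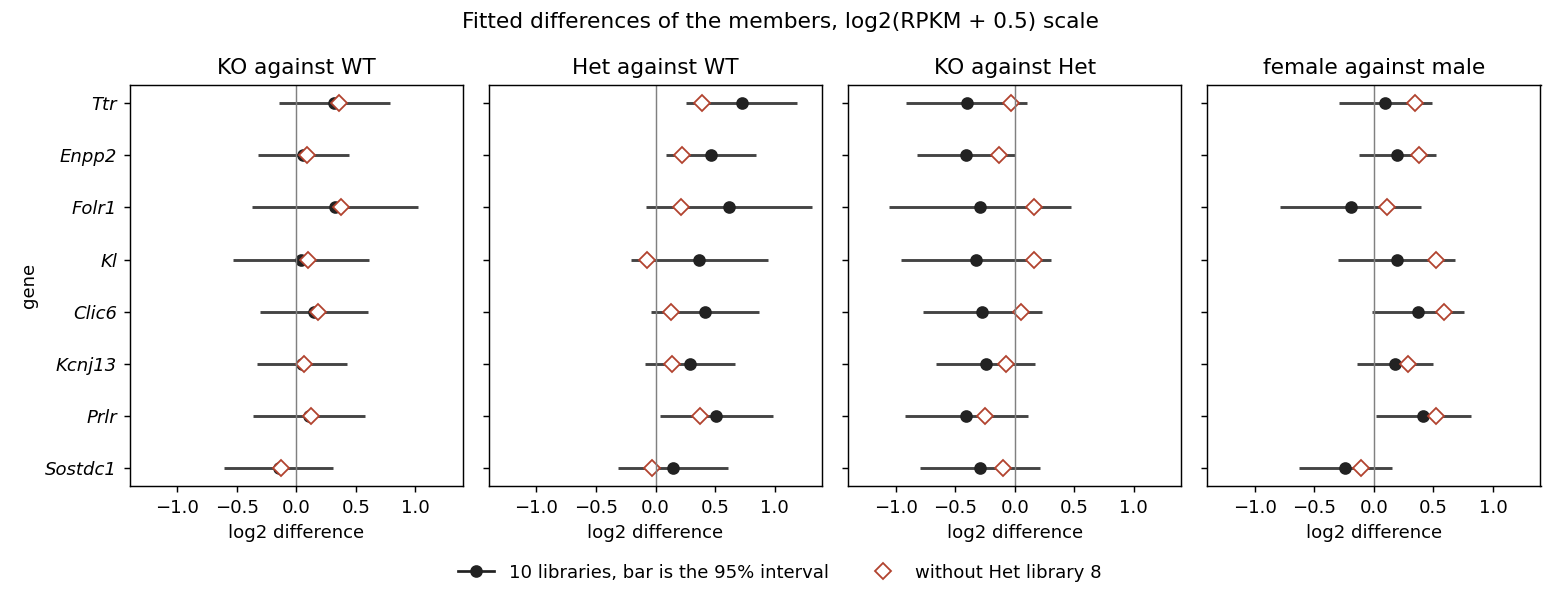
Log2 differences of the 8 genes in 4 comparisons (horizontal axis, log2(RPKM + 0.5) scale), with filled points and bars for the fit and its 95% interval over 10 libraries and open diamonds for the fit without Het 8. In Het against WT all 8 filled points lie right of 0, from 0.14 to 0.72, and all but Kl and Sostdc1 stay there without Het 8. Het 8 is the only male Het library.

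Sex was the fourth comparison. Female libraries averaged 6.53 ± 1.90 RPKM of Prlr and male libraries 4.48 ± 1.31 RPKM (SD, n = 5 each), a log2 difference of 0.42 (interval 0.015 to 0.82, unadjusted p = 0.0434, adjusted p = 0.919 by limma). Clic6 averaged 6.14 ± 0.521 RPKM in female libraries and 4.64 ± 1.66 RPKM in male libraries, a log2 difference of 0.37 (interval -0.016 to 0.75). In all, 6 of 8 genes were positive with a median of 0.18, where the median of all genes was 0.03 and 56.7% were positive. None was called by limma, against 6 of 13621 genes (0.044%), and 1 of 8 had an unadjusted p under 0.05 by limma and by limma-voom, against 3.51% and 2.15% of all genes in that direction. Female and male libraries overlapped for each of the 8, while 0.565% of all genes lay wholly higher and 0.338% wholly lower in females. Without Het 8, the only male Het library, the sex difference rests on the WT and KO libraries alone, with KO 6 the only female KO library. The median was then 0.36, with a lowest adjusted p of 0.821 by limma. In that fit 4 of 8 had an unadjusted p under 0.05 by limma, all higher in females. Of all 13522 genes in it, 514 were at that level in the higher and 277 in the lower direction.

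Partner genes of the pathways in which these genes act were read beside them. From 7 lists of partner genes with 50 genes tested, limma called 0 in any of the 4 comparisons. Before adjustment, 2 of the 50 had p under 0.05 in Het against WT (2.75% of all genes in either direction), 0 in KO against WT (5.13%), 0 in KO against Het (3.35%) and 1 in female against male (5.34%). Across the 10 libraries, r of the list index with that of the set was 0.76 for both the klotho and the bone morphogenetic protein and Wnt lists (0.88 and 0.71 without Het 8 and WT 7). For the other 5 lists it lay between 0.36, for the channel list (0.87 without those libraries), and 0.50, for the thyroid hormone and retinol list (0.72). Single genes of these lists followed the set less closely over the 10 libraries. Their median r was 0.40 in the klotho list and 0.32 in the bone morphogenetic protein and Wnt list, with 1 gene at 0.7 or above in each. In the channel list the median was -0.12, and 3 of 8 genes were positive. In the thyroid hormone and retinol list, led by the transporter Slco1c1 (29.2 RPKM), 5 of 6 tested genes were positive in Het against WT with a median of 0.14, and Dio3 was listed at 0 in every library. In the lysophosphatidic acid list, led by the receptor Lpar6 (83.2 RPKM) and the phosphatase Ppap2a (13.1 RPKM), 3 of 6 were positive with a median of -0.03.

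Among folate genes, led by the proton-coupled folate transporter Slc46a1 (12.3 RPKM) and the hydrolase Ggh (11.4 RPKM), 6 of 8 were positive in Het against WT with a median of 0.11. Of the klotho and fibroblast growth factor list, 2 of 4 were positive with a median of 0.09. Its 2 most abundant genes were Galnt3 (4.12 RPKM), which glycosylates fibroblast growth factor 23, and the receptor Fgfr1 (1.59 RPKM). Fgfr2, another receptor of that family, averaged 1.57 RPKM and is the gene named above for its likeness to the set. In the channel list, led by Clic1 (50.3 RPKM) and Kcnj2 (32.3 RPKM), 2 of 8 were positive with a median of -0.04.

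The prolactin receptor list, led by the feedback inhibitor Socs3 (85.6 RPKM) and the kinase Jak2 (19.6 RPKM), had 7 of 8 genes positive in Het against WT with a median of 0.12, and Prl, the hormone itself, was listed at 0 in every library. The list of bone morphogenetic protein and Wnt genes, led by the receptors Bmpr2 (114 RPKM) and Lrp6 (24.5 RPKM), had 8 of 10 positive with a median of 0.04. In KO against WT the medians of the 7 lists lay between -0.06 and 0.10.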

How the data were processed

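RPKM values per gene were used as deposited by the authors, who gave 1 linear value for each library. The submitters' processing notes name STAR, HTSeq, edgeR, limma and mm10; their versions, order and annotation were not given in the sources consulted. Each library listed 24060 names, and 27 that a spreadsheet had turned into dates were left out. Values of all 19983 genes above 0 (100.0%) were whole multiples of 1 read within 0.0005 reads or a relative 3e-07. These recovered reads served for depth, counting intervals and limma-voom, an alternative that called 2 genes in KO against WT, 1 in Het against WT, 1 in KO against Het and 6 in female against male. Results of other count models are left out, because the deposited unit is RPKM.

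The test was limma 3.58.1 in R 4.3.3 with a mean-variance trend, on log2(RPKM + 0.5), for the 13621 genes that reached 0.5 RPKM in 3 or more libraries. Genotype and sex were terms, all 10 libraries entered, and two-sided p-values were adjusted (Benjamini-Hochberg) across those genes, with calls under 0.05. Differences on this scale understate those of low genes. The fits were tested on simulated data with changes in KO against WT only. Those changes were larger than any difference of the set over the 10 libraries. The test therefore does not show whether differences as small as those of the set could be called. Correlations are over libraries and have no p.

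The 8 genes and all lists were chosen with earlier results of these data known, so no result of theirs is independent support. Named beside them were the 5 most abundant genes of the other choroid plexus list, up to 2 of each other list plus any called, the 10 genes most like the set and 5 most like Ttr. Otx2, Kcne2, Aqp1, Foxj1, Mog, Opalin, Dio3, Prl, Gigyf2, the genes below the filter and the closest list genes were named after their values were seen. Coordinates are from GENCODE M21 (GRCm38), sequences from RefSeq (GRCm38.p6).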

Additional observations from a re-analysis of the deposited data

Results flagged for a closer look

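Ttr in Het library 11, at 1330 RPKM, was far from the other 4 female libraries: its gap to the next value was 0.776 of the range of the 5, above the critical value of 0.71 (Dixon, 95%). Chance gives such a gap in about 1 in 20 groups, and 24 groups were examined. For 3 genes the KO and WT libraries of the 2 sexes moved in opposite directions without overlap, with only 1 female KO library. Every gene of the set was examined in this way, in KO and in Het against WT. The share of all genes with such a pattern was not computed, so the count carries no weight. For Ttr in females, KO 6 (947 RPKM) lay only just below WT 10 (952 RPKM). The difference between the sexes was not tested. For Ttr, KO minus WT was -0.06 in females and 0.64 in males on the log2 scale, a gap of -0.70. For Kl it was -0.25 in females and 0.32 in males, a gap of -0.57. For Clic6 it was -0.13 in females and 0.39 in males, a gap of -0.53.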

How the results depend on the processing

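No paired analysis was made, because the labels name no pairs or blocks. Library numbers 4 to 12 run through WT, Het and KO in turn, and the libraries over 30 M reads are numbers 9 to 12. Whether this order marks blocks or runs is not given in the labels and was not tested. The planned edgeR and DESeq2 fits on recovered reads were run and then left out, because the deposited values are RPKM and not counts. Neither called any of the 8 genes, but both gave more of them than limma did at an unadjusted p under 0.05 in Het against WT and in KO against Het. Over 20 settings and the comparisons each allows, 76 in all, 0 of the 8 genes were called (lowest adjusted p = 0.734). Under settings other than leaving out a library, 255 of 256 values of single genes kept their sign, and Kl in KO against WT turned to -0.018 by limma-voom; the cause was not tested. Genes called in KO against WT numbered 1, but 2 by limma-voom and 2 with a term for depth class (over or under 30 M reads), an alternative chosen after seeing the data. In Het against WT they numbered 0, but 1 by limma-voom.

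Leaving out 1 library at a time reversed 18 of 320 values. In KO against WT the ranges were -0.062 to 0.18 for Enpp2, -0.17 to 0.27 for Kcnj13, -0.14 to 0.19 for Kl and -0.0011 to 0.23 for Prlr, and genes called ranged from 1 to 3, with 3 without KO 6. In Het against WT they were -0.071 to 0.66 for Kl and -0.033 to 0.39 for Sostdc1, in KO against Het -0.40 to 0.056 for Clic6, -0.69 to 0.16 for Folr1 and -0.60 to 0.17 for Kl, and in female against male -0.32 to 0.11 for Folr1 and -0.022 to 0.35 for Ttr. The median r between the 8 genes ranged from 0.57 to 0.79. Median-ratio scaling moved the median of all genes in KO against WT to 0.0003. With 3 or 4 libraries a genotype, the Het against WT intervals of 5 of the 8 genes included 0, and Folr1 rests on 47 to 251 reads a library.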
